A study of Mus musculus with 3 samples.

Results

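The 10 genes described here are immediate early genes, most of which did not keep 1 direction between the arrays of this experiment: Fos, Fosb, Junb, Atf3, Egr1, Nr4a1, Nr4a2, Nr4a3, Dusp1 and Ier3. They were selected on the ratios measured on these same arrays, so every ratio of theirs below is a description and carries no test. All 10 were on the array, among 21149 genes with a symbol there, through 11 probes matched by RefSeq accession, and 9 of them had a probe bright enough to be kept among the 19327 features tested. RNA of whole brown adipose tissue, from male mice aged 10 weeks and fed regular chow, was compared between Ad-Lkb1 mice, in which the kinase LKB1 (gene Stk11) is deleted per the series title, and wild-type littermates. Ad-Lkb1 mice carry the strain name C57BL/6J in the labels and wild-type mice C57BL/6, and the driver of the deletion is not given in the sources used here. Each of 3 Agilent arrays carried RNA of 1 Ad-Lkb1 sample in Cy5 and of 1 wild-type sample in Cy3, and the 3 samples of a genotype are biological replicates per the series text. Because the dyes were never swapped, dye, strain name and genotype cannot be told apart. A ratio below is the log2 of Ad-Lkb1 over wild type on 1 array, so that a value above 0 means more signal in Ad-Lkb1 and 1 unit is a 2-fold difference.

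Immediate early genes are transcribed within minutes of a signal reaching a cell, by factors already present and without new protein being made first, and their RNA is short-lived. Many of their products are transcription factors: FOS and JUN proteins pair into AP-1, and EGR and NR4A proteins bind sites of their own, while phosphatases such as DUSP1 switch off the kinases that carried the signal. In brown fat, noradrenaline acts through cyclic AMP and the factor CREB, and genes of this class are among those known to answer it.

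Signal-driven factors bind many of these genes just before the start of transcription, so the 250 bases before the RefSeq start are shown for 6 members whose array values are described below. The table of promoter windows, from RefSeq on build GRCm38.p6, held 9 of the 10 members; Egr1 had no entry. Fos lies at chr12:85473640-85473889 on the plus strand. Fosb lies at chr7:19310046-19310295 on the minus strand. Atf3 lies at chr1:191183334-191183583 on the minus strand. Nr4a1 lies at chr15:101266596-101266845 on the plus strand. Dusp1 lies at chr17:26508473-26508722 on the minus strand. Ier3 lies at chr17:35821463-35821712 on the plus strand. Each is written 5′ to 3′ on the gene's strand, and capitals mark matches on either strand to the motifs searched: the cyclic AMP response element TGACGTCA and its core TGACG, the EGR site GCGNGGGCG and the TATA box TATAAA.
Fos: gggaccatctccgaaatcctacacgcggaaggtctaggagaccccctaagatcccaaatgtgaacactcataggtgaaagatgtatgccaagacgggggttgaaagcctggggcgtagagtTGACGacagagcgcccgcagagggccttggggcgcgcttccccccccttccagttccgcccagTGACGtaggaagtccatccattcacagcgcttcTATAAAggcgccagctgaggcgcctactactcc
Fosb: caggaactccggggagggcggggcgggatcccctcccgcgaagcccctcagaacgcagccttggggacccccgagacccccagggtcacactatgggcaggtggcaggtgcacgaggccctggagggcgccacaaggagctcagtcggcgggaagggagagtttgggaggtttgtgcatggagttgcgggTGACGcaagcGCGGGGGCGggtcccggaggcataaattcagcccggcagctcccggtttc
Atf3: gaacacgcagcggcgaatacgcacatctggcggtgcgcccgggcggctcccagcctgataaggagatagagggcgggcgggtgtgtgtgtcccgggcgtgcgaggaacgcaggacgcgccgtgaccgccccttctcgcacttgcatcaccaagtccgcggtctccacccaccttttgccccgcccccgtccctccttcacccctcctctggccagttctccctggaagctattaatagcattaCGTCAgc
Nr4a1: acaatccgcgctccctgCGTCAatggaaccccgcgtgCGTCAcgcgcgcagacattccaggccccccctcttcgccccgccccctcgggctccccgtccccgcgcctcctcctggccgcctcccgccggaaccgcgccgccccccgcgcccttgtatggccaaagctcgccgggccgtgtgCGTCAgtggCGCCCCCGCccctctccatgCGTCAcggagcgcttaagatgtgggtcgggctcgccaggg
Dusp1: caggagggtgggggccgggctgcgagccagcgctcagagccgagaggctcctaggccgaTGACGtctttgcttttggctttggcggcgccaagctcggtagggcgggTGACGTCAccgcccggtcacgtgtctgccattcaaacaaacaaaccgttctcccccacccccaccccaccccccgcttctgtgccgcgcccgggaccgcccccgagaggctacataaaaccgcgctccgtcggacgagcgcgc
Ier3: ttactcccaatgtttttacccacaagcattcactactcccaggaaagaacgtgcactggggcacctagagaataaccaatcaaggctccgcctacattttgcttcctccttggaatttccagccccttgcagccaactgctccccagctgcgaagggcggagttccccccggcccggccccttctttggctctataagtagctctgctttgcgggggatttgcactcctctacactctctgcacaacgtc
The core TGACG, which is also part of the full element, was found in 8 of the 9 member windows of 300 bases (250 before the start and 50 after it). It was found in 23.0% of the 27025 genes of the table, counting a gene if any of its windows held it, and in 25 of 44 other immediate early genes with a window (56.8%). Nr4a1, Nr4a2 and Nr4a3 each held 4 matches and Fos held 2, while Ier3 held none. The full element TGACGTCA was found in Dusp1 alone among the members and in 2.03% of all genes. An EGR site was found in Fosb, Nr4a1 and Nr4a2, in 6.27% of genes and in 25.0% of the 44 other immediate early genes. The letters TATAAA were found in Fos, Junb and Nr4a2, in 15.7% of genes and in 27.3% of those 44. Only in Fos did they lie shortly before the start, at -33 to -28. In Junb they lay at 1 to 6, after the start, and in Nr4a2 at -164 to -159 on the opposite strand. Neither the CArG box, the site of serum response factor, nor the AP-1 site TGANTCA was found in a member window. They were in 1.81% and 8.97% of genes. Sites outside these windows were not searched, and Egr1 was not covered. The member windows held 54.0% to 81.7% G and C, against a median of 52.7% over all windows, and a match to these letters is a description, not a shown binding site.

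As facts of the whole series, the median spot had a signal of 51.0 to 53.5 in Cy3 against a local background of 43.0 to 44.0, and of 21.0 to 23.0 in Cy5 against 17.0, in scanner units. The dyes were thus on unlike scales before normalization. Raw signals below are to be read within a dye, and the genotypes are compared by the normalized ratios. Between 46.7% and 51.3% of features per channel and array were well above background. Stk11, the targeted gene, was lower in Ad-Lkb1 on each array, at -1.26, -1.17 and -1.17, and the brown fat marker Ucp1 had ratios of 1.69, 1.39 and 1.35. Over all features, ratios on arrays 1 and 2 correlated at r = 0.73, those on arrays 1 and 3 at 0.36 and those on arrays 2 and 3 at 0.50; features are not independent replicates. At an adjusted p under 0.05, limma called 8.7% of all features, 4.78% as higher in Ad-Lkb1 and 3.92% as lower. That split of 923 higher and 758 lower became 529 and 279 with the scanner software's own processed signals, and 389 and 9708 with each array centred on its median in place of the loess curve. Of the 9 measured members, 1 was called higher (Atf3) and 0 lower, and without array 3, 6 of 9 were called where 10.6% of all features were. Without array 1 or without array 2 limma called 0 features, where 3928 and 3562 had an unadjusted p under 0.05. Since the ratios chose the members, nothing is read from these counts.

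The members were mostly higher in Ad-Lkb1 on arrays 1 and 2 and lower on array 3. Their median ratio was 2.03 on array 1, 1.66 on array 2 and -0.44 on array 3, against -0.016, -0.0023 and -0.0076 over all features. On array 1, 8 of 9 ratios lay above 0, on array 2 again 8 of 9, and on array 3, 8 of 9 lay below 0. The full pattern, above 0 on arrays 1 and 2 and below 0 on array 3, was met by 6 of the 9 (Fos, Fosb, Egr1, Nr4a1, Dusp1 and Ier3), and by 9.92% of all features. Under median centring, which put the median of all features at -0.57, -0.31 and -0.38, Ier3 lay below 0 on array 1 and the pattern was met by 5 of 9. For all 9 measured members the mean of arrays 1 and 2 exceeded array 3, by 0.30 (Junb) to 4.72 (Egr1), and under that centring the count was 9 of 9 as well. Which member had the widest or narrowest gap depended on the setting: with the software's processed signals these were Fos, at 8.30, and Nr4a2, at 0.53. In whole tissue, fewer cells of a type and less RNA per cell cannot be told apart.

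**Figure D1:**
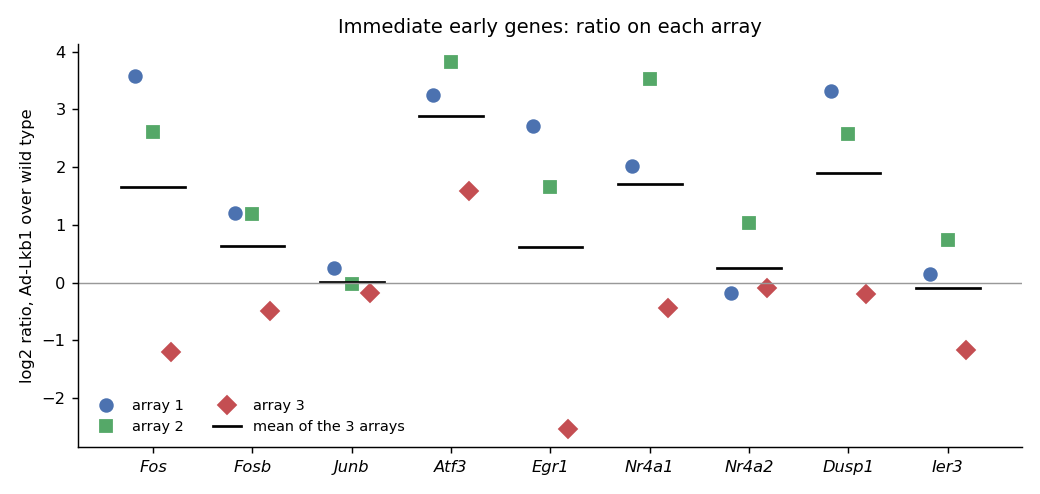
Log2 ratio, Ad-Lkb1 over wild type (vertical axis), for the 9 measured members (horizontal axis) on each of the 3 arrays, with a bar at the mean of the 3. Array 3 lies below 0 for every member except Atf3, at 1.58, and is lowest for Egr1, at -2.53; with median centring the Ier3 point of array 1 lies below 0, and with the mean of both Nr4a2 probes its point of array 3 lies above 0.

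Among the AP-1 genes, Fos differed most between arrays. Its product is the partner that JUN proteins bind to form AP-1. The probe was spotted 10 times per array, and the mean wild-type signal was 49.05, 44.6 and 614 on arrays 1 to 3, against local backgrounds of 43.2, 41.4 and 41.9. In Ad-Lkb1 the signal was 400, 235 and 103 against backgrounds of 16.6 to 16.8. So wild-type Fos was not well above background on arrays 1 and 2 (0 and 1 of 10 spots) and was well above it in 10 of 10 spots on array 3, while all Ad-Lkb1 samples were above background. The ratios were 3.58, 2.61 and -1.20, with an SD over spots of 0.086, 0.072 and 0.049; 5 spots on array 2 and 1 on array 3 were outliers by the scanner's own call and were left out. With dim wild-type signals set no lower than the lowest level well above background, Fos was 11.0-fold higher in Ad-Lkb1 on array 1. On array 2 the measured wild-type level already lay above that lowest level, so the 6.12-fold difference there is the measured ratio. On array 3 Fos was 2.30-fold higher in wild type. With median centring the log2 ratios of arrays 1 and 2 were 2.96 and 2.28, so these folds are not lower bounds over the settings. The SD over spots covers only repeat spots of the same samples; the scanner's own error of the log ratio was 0.69, 0.67 and 0.25 in log2 units. Over the 3 arrays the mean ratio was 1.66 ± 2.53 (SD, n = 3), so the SD exceeded the mean.

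The level of each sample, put on 1 log2 scale over arrays, shows which side of the ratio differed. Differences between samples are taken within a dye, that is, among the wild-type samples or among the Ad-Lkb1 samples. For Fos the wild-type levels were 5.78, 5.88 and 8.77 and the Ad-Lkb1 levels 9.36, 8.49 and 7.57. With dim signals limited in the same way, the wild-type sample of array 3 stood 7.38-fold above the mean of the other wild-type samples. The Ad-Lkb1 sample of array 3 stood 2.56-fold below the mean of the other Ad-Lkb1 samples. For Fos both sides moved the ratio of array 3 the same way, the wild type further.

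Fosb, whose product is a close relative of FOS, had wild-type signals of 88, 96 and 656.5 and Ad-Lkb1 signals of 105, 125 and 201.5. Wild type was again high on array 3, and here the Ad-Lkb1 sample of array 3 was the highest of its genotype too. The ratios were 1.20, 1.19 and -0.49, with a mean of 0.63 ± 0.97 (SD, n = 3). Local backgrounds in wild type were 44, 43 and 41, so the sizes depended on the background setting. With the software's processed signals the ratios were 2.38, 2.06 and -0.55. On the level scale the wild-type sample of array 3 stood 5.03-fold above the mean of the other wild types, and the Ad-Lkb1 sample 1.56-fold above that of its own group. In its sign pattern Fosb thus went with Fos, but only through the wild-type side.

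Junb encodes a JUN protein that pairs with FOS proteins. Its wild-type signal was 52, 66 and 107 and its Ad-Lkb1 signal 28, 28 and 38, close to background, and the wild-type spot of array 1 was not well above it. The ratios of 0.26, -0.03 and -0.18 gave a mean of 0.015 ± 0.22 (SD, n = 3). With the software's processed signals they were 1.39, -0.08 and -0.69. For Junb the wild-type sample of array 3 was again the highest of its genotype, 1.43-fold above the others.

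Atf3 encodes a stress-induced factor of the ATF/CREB family that can pair with JUN proteins. Its wild-type signals were 246, 200.5 and 564 and its Ad-Lkb1 signals 1036, 1518 and 795. It was the 1 member of 9 whose genotypes did not overlap on the level scale, with wild-type levels of 7.53, 7.31 and 8.60 against 10.77, 11.12 and 10.18 in Ad-Lkb1; 36.3% of all features were likewise separated. The ratios were 3.25, 3.81 and 1.58, a mean of 2.88 ± 1.16 (SD, n = 3). On array 3 Atf3 had the same sign as on the others and a smaller ratio, 3.00-fold against 9.49-fold and 14.1-fold. The wild-type sample of array 3 was 2.28-fold above the other wild types and the Ad-Lkb1 sample 1.69-fold below the other Ad-Lkb1 samples.

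Egr1, the gene of a zinc finger factor, had wild-type signals of 145, 176 and 2480 and Ad-Lkb1 signals of 471, 294 and 168. Wild type was highest on array 3 and Ad-Lkb1 lowest there, and the genotypes changed places. The ratios were 2.72, 1.66 and -2.53, that is, 6.58-fold and 3.16-fold higher in Ad-Lkb1 on arrays 1 and 2 and 5.76-fold higher in wild type on array 3. For this probe, with 1 spot per array, the scanner's own error of the log ratio was 0.39, 0.29 and 0.33 in log2 units. The mean ratio of 0.62 ± 2.77 (SD, n = 3) lay far from the value of every array, and without array 1 it was -0.43. On the level scale wild-type Egr1 was at 6.93, 7.18 and 10.69, so array 3 stood 12.4-fold above the other wild types. The Ad-Lkb1 levels were 9.65, 8.84 and 8.17, so array 3 stood 2.11-fold below its group.

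The NR4A genes encode orphan nuclear receptors, and Nr4a1 is known to be induced in brown fat by adrenergic signals. Nr4a1 had wild-type signals of 6959, 2478 and 23530 and Ad-Lkb1 signals of 10580, 14520 and 8106, bright on all arrays in both channels. Its ratios were 2.03, 3.53 and -0.44, with a scanner error of 0.27, 0.39 and 0.21 and a mean of 1.71 ± 2.00 (SD, n = 3). For Nr4a1 the wild types of arrays 1 and 2 also differed from each other, at log2 levels of 12.08 and 10.79, with 13.97 on array 3, while the Ad-Lkb1 levels of 14.10, 14.32 and 13.53 lay closer together. The wild-type sample of array 3 stood 5.82-fold above the mean of the other wild types, and the Ad-Lkb1 sample 1.60-fold below that of its own group.

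Nr4a2 showed another pattern. Its wild-type signals were 912, 551 and 984 and its Ad-Lkb1 signals 311, 525.5 and 410. The ratios were -0.18, 1.03 and -0.09, a mean of 0.25 ± 0.68 (SD, n = 3), so array 2 stood apart and arrays 1 and 3 lay near 0; with median centring they were -1.07, 0.51 and -0.71. The other, dimmer Nr4a2 probe gave 0.03, 1.14 and 0.29; the probes disagreed in sign on arrays 1 and 3, where the scanner error of each was 0.20 to 0.21. Nr4a3 gave no usable value: over 10 spots its wild-type signal was 40.1, 43.3 and 48.8 against backgrounds of 43.1 to 43.9, and its Ad-Lkb1 signal 18.7, 22.1 and 19.7 against 16.6 to 17.0. It was not well above background in most spots of either genotype on any array, the most being 4 of 10 Ad-Lkb1 spots on array 2.

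Dusp1 encodes a phosphatase that inactivates MAP kinases. Its wild-type signals were 255, 290.5 and 935.5 and its Ad-Lkb1 signals 1136, 885.5 and 363.5. Array 3 held the highest wild-type and the lowest Ad-Lkb1 sample, and their normalized log2 levels there nearly met, at 9.318 and 9.125. The ratios were 3.32, 2.57 and -0.19, a mean of 1.90 ± 1.85 (SD, n = 3). On arrays 1 and 2 Dusp1 was 9.99-fold and 5.94-fold higher in Ad-Lkb1, and on array 3 it was 1.14-fold higher in wild type, where the ratio was smaller than its scanner error of 0.20. For Dusp1 the sides differed by similar amounts: the wild-type sample of array 3 stood 3.10-fold above the other wild types and the Ad-Lkb1 sample 2.84-fold below the other Ad-Lkb1 samples.

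Ier3 encodes a short-lived protein induced by growth factors and stress. Its wild-type signals were 231, 194 and 561 and its Ad-Lkb1 signals 104, 155 and 96. Its ratios of 0.16, 0.73 and -1.16 gave a mean of -0.09 ± 0.97 (SD, n = 3), which turned to 0.45 without array 3. The wild-type sample of array 3 was 2.30-fold above the other wild types, while the Ad-Lkb1 samples differed less, at levels of 7.73, 8.03 and 7.48.

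**Figure D2:**
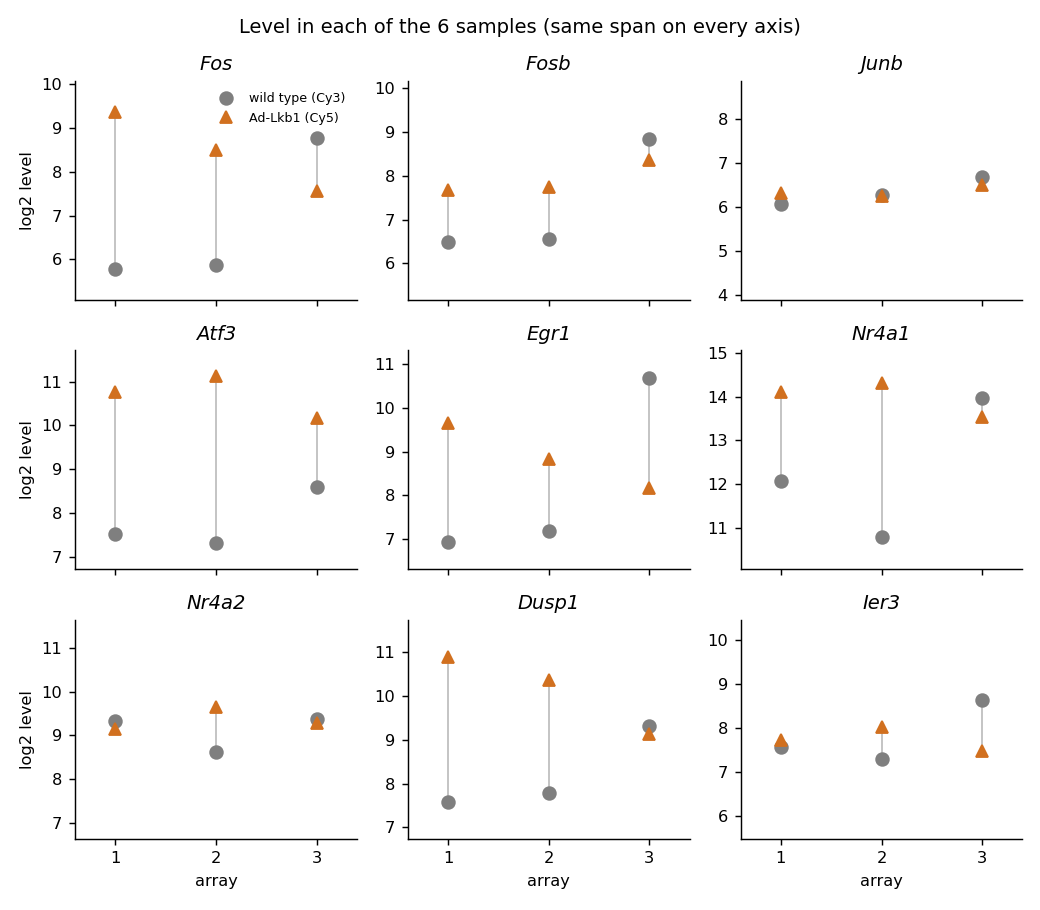
Log2 level (vertical axis, the same span in every panel) of the 9 measured members in the wild-type (circles, Cy3) and Ad-Lkb1 (triangles, Cy5) sample of each array (horizontal axis); grey lines join the samples of 1 array. Wild type is highest on array 3 in each panel, at 10.69 for Egr1 against 6.93 and 7.18, and the genotypes overlap in every panel except that of Atf3.

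Over the measured members, the wild-type sample of array 3 was the highest wild type for 9 of 9, as it was for 29.7% of all features. It stood above the mean of the other wild types by at least 1 log2 unit for 7 of 9 members (Fos, Fosb, Egr1, Nr4a1, Dusp1, Atf3 and Ier3), against 1.87% of all features. The Ad-Lkb1 sample of array 3 was the lowest of its genotype for 6 of 9 members and for 39.3% of features. It stood below the mean of the others by at least 1 unit for 3 members (Fos, Egr1 and Dusp1), against 0.15% of features. In 9 of 9 members the wild-type side differed by more than the Ad-Lkb1 side, which held for 56.1% of features. Between arrays 1 and 2, the members' wild-type levels differed by 0.08 to 1.29 (median 0.22, against 0.12 over all features). Their Ad-Lkb1 levels differed by 0.06 to 0.87 (median 0.35, against 0.11). These levels come from the same signals as the ratios that chose the members, so the counts describe how the ratios are made up and test nothing.

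**Figure D3:**
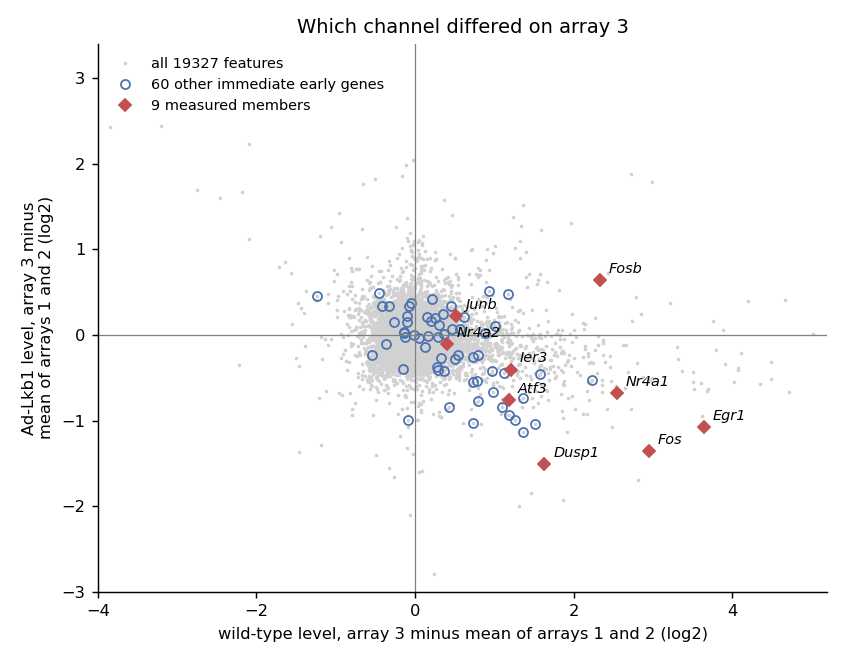
Difference of array 3 from the mean of arrays 1 and 2 in wild type (horizontal axis) and in Ad-Lkb1 (vertical axis), in log2 units, for the 9 measured members (diamonds), 60 other immediate early genes (circles) and all 19327 features (grey; 6 lie outside the axes). Every measured member lies to the right of 0, at 0.41 (Nr4a2) to 3.64 (Egr1), and 7 of 9 also lie below 0.

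Of 70 other immediate early genes that are no members, 60 were measured. The list of others was drawn up with earlier results of these data known. The members were selected on these ratios themselves, so the shares of members and others are not set against each other. The median ratio of the 60 was 0.48, 0.55 and -0.05 on arrays 1 to 3. With median centring it was -0.17, 0.16 and -0.56, so that array 1 turned below 0. Of the 60, 20 (33.3%) lay above 0 on arrays 1 and 2 and below 0 on array 3, beside 9.92% of all features. The wild-type sample of array 3 stood at least 1 unit above the others for 11 of the 60. The Ad-Lkb1 sample stood at least 1 unit below for 3. Over all features these shares were 1.87% and 0.15%. The widest gaps were in Ccn1 (1.92, 1.25 and -1.18), which encodes a matrix protein, and in Jun (2.04, 2.46 and -0.29), whose product pairs with FOS. Next came Egr2 (2.19, 1.18 and -0.81), a relative of Egr1 whose wild type was above background on 2 of 3 arrays, and Trib1 (1.93, 1.68 and -0.45), the gene of a pseudokinase. Some kept their direction: limma called 8 of the 60 higher in Ad-Lkb1 and 2 lower, beside 4.78% and 3.92% of all features. With median centring the counts were 4 higher and 12 lower, where 389 and 9708 of all 19327 features were called. Crem, which encodes a factor answering cyclic AMP, had ratios of 0.91, 0.91 and 1.01 (limma adjusted p = 0.0122). Cebpd, the gene of a C/EBP factor, had 1.11, 1.43 and 1.16 (limma adjusted p = 0.0124). Dusp8, a phosphatase gene like Dusp1, had 1.02, 1.05 and 1.35 (limma adjusted p = 0.0141). Bhlhe40, the gene of a repressor tied to the clock, was lower, at -1.29, -0.80 and -1.28 (limma adjusted p = 0.0227). Without array 1 or array 2 limma called 0 of the 60 (20 and 19 had an unadjusted p under 0.05). With array 3 left out, 25 were called higher and 2 lower, where 10.6% of all features were called in either direction.

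Lists of related pathways, also drawn up with earlier results of these data known, are given by their median gap between arrays (arrays 1 and 2 minus array 3). Some genes, such as Gadd45g, Jun, Crem and Per1, are in more than 1 list, the other immediate early genes included, so the counts overlap. Over all features, 9.92% had the members' sign pattern, and limma called 4.78% higher and 3.92% lower. Among 19 measured genes of brown fat known to answer cyclic AMP, 4 had the members' sign pattern. They were Irf4, Gadd45g, Rgs2 and Sik1, all but Irf4 also among the other immediate early genes. The median gap was 0.06 (from -0.10 to 0.11 over the settings), beside -0.01 for all features. Of the 19, limma called 9 higher, among them Ucp1, Crem and Gys2, and 1 lower (Acot11). In this list Irf4, a factor induced by fasting in fat, went the members' way (2.01, 1.52 and -2.75), whereas Ppargc1a, the coactivator of mitochondrial genes, went the other way (-0.94, 0.13 and 1.98). Of 20 AP-1 and CREB/ATF partner genes, 6 had the pattern, with a median gap of -0.14. The widest gaps were in Batf2 (0.57, 0.24 and -2.37), Jun, Fosl2 (1.01, 0.94 and -0.31) and Batf3 (0.59, 1.05 and -0.008), all with the pattern. In this list 3 were called higher (Jund, Atf4 and Crem) and 0 lower. Of 15 glucocorticoid receptor targets, 2 had it (Errfi1 and Gadd45g, both also among the other immediate early genes), with a median gap of -0.54. Zbtb16 (-0.07, -1.41 and 1.69) and Fkbp5 (-0.45, -0.99 and 1.30) went the other way. Of the 15, 2 were called higher (Lcn2 and Cdkn1a) and 0 lower. Among 15 clock genes, 0 had it (median gap -0.38). Per1 (-0.52, -0.37 and 1.25), Per2 (-0.76, -1.25 and 0.75) and Nr1d2 (-0.70, -0.91 and 0.18) went the other way. Of the 15, 2 were called higher (Nfil3 and Arntl) and 3 lower (Dbp, Bhlhe40 and Tef). Of 14 heat shock and handling stress genes, 0 had it (median gap -0.38), and 2 were called higher (Hspa8 and Hsp90aa1) and 0 lower. The widest gaps in this list went the other way. They were in Cryab (-1.15, -0.12 and 1.69), Hmox1 (-0.58, 1.58 and 2.58), Hsph1 (0.27, -0.56 and 1.02) and Chordc1 (-0.36, -0.72 and 0.50).

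**Figure D4:**
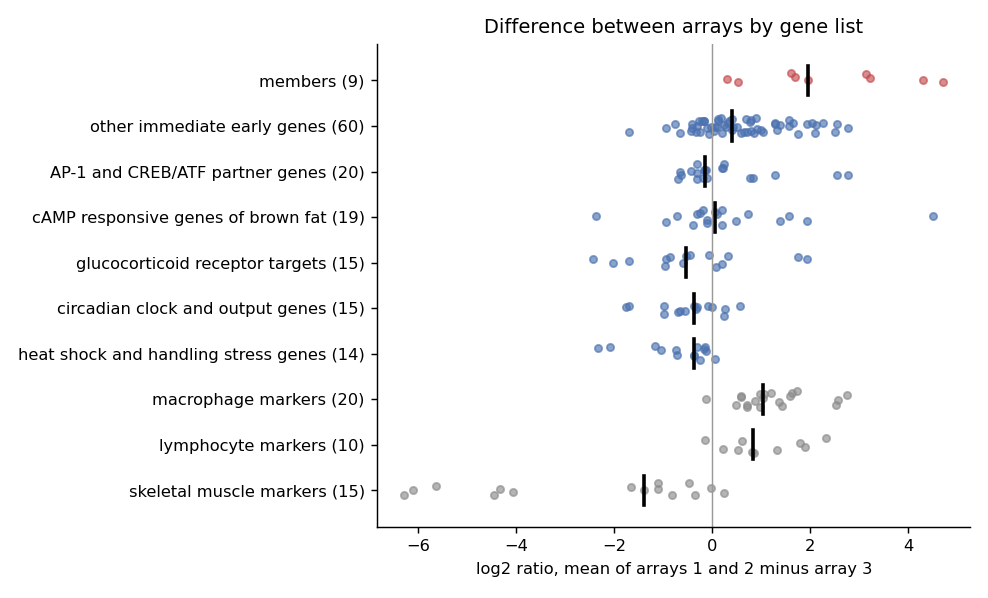
Log2 ratio, mean of arrays 1 and 2 minus array 3 (horizontal axis), for each measured gene (points; vertical scatter within a line is only for legibility) of the members and 9 other lists (number measured in brackets), with a bar at each list's median. The members, selected on these ratios, have a median of 1.95; the other immediate early genes have 0.41, the macrophage markers 1.04 and the skeletal muscle markers -1.38.

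The 10 named features whose 3 ratios lay nearest to the members' median of 2.03, 1.66 and -0.44 were, in order of distance, Trib1, Ifih1, Ubd, Phf11a, B2m, Dusp6, Gadd45g, Ccl12, Stmn1 and Lgals3bp. Trib1, the nearest, lay 0.10 log2 units away and Lgals3bp 0.39. Dusp6, a phosphatase gene like Dusp1, had 1.92, 1.85 and -0.23. For B2m, the invariant chain of MHC class I, the ratios were 1.97, 1.47 and -0.65; its wild-type levels were 12.75, 12.60 and 14.79 and its Ad-Lkb1 levels 14.72, 14.07 and 14.14. As for Fosb, its gap lay in the wild-type sample of array 3.

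Among the wild-type samples, summed macrophage, lymphocyte and fibroblast markers were highest on array 3, as the members were. The sums of the other marker lists were not: neutrophils and mast cells, skeletal muscle, endothelium, nerve, and mature and brown adipocytes. The summed level of 20 measured macrophage markers (of 21; Cd163 was not measured) was 5587, 4711 and 12130 in wild type and 22820, 25310 and 21110 in Ad-Lkb1. Of these markers limma called 11 higher, their median ratios were 2.03, 2.31 and 0.88, and 3 of 20 had the members' sign pattern. Over all features, limma called 4.78% higher, and 9.92% had that pattern. For 10 measured lymphocyte markers the sum was 1645, 1609 and 3015 in wild type and 1847 to 1980 in Ad-Lkb1, and 7 of 10 had the members' sign pattern. For 12 fibroblast markers the sum was 15680, 14040 and 17540 in wild type and 26280 to 32600 in Ad-Lkb1, and 1 of 12 had the pattern. For 10 measured neutrophil and mast cell markers (Ly6g, Mpo, Ngp, Cxcr2 and Ms4a2 were not measured) the sum was 6733, 10300 and 9161 in wild type and 8009 to 12240 in Ad-Lkb1, and 0 of 10 had the pattern. Csf3r, the brightest of them, had wild-type log2 levels of 12.34, 13.16 and 12.88 and carried most of this sum. In wild type S100a8, S100a9, Kit and Cma1 were highest on array 3, and Csf3r, Mcpt4, Cpa3, Tpsb2, Elane and Camp were not. Skeletal muscle markers (15 of 23 measured; Ckm, Myh1 and Myh2 were not) followed other lines, with sums of 24640, 7938 and 4758 in wild type and 5436, 28570 and 28580 in Ad-Lkb1. Brown adipocyte markers summed to 227900 to 255000 in wild type and 384900 to 432100 in Ad-Lkb1, a sum in which bright markers such as Ucp1 weigh most. Of these 13 markers limma called 5 higher and 2 lower (Ppara and Adrb3), beside 4.78% and 3.92% of all features. The part of these cells in the members' ratios was not tested.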

How the data were processed

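Members and gene lists were chosen with earlier results of these data known. The deposited scanner files hold median intensity per spot and local background in both channels, a log10 ratio and its error, and processed signals, per the file headers, made by the authors with Agilent Feature Extraction 11.5, per the submitters' processing notes. The deposited value table matched that log10 ratio (Cy5 over Cy3) within 0.0049; the software had set 26.8% to 27.8% of ratios to 0. The plan named mean or median signals; medians were held and used. Here, background was corrected by normexp (offset 50) and each array normalized by loess in limma 3.58.1 (R 4.3.3), with control spots at weight 0 and outlier spots left out. Repeat spots were averaged per probe. Probes were kept where most spots were well above background on all 3 arrays in 1 channel, which left 25030 of 55678, and the brightest stood for a gene. The table of RefSeq genes (GRCm38.p6) named 28019 probes. limma fitted the mean ratio of the 3 arrays over 19327 features, with Benjamini-Hochberg adjustment, and levels were quantile-normalized over arrays (Aquantile). The fit was also run on simulated arrays with equal noise on each, which do not stand for the differences between arrays seen here. Slide and scan were shared by all arrays. Alternatives were 7 other settings and leaving out each array. Named were all members, in each pathway list up to 4 called genes by p and the 4 widest gaps between arrays, and the 10 nearest features. Stk11, Tef, Rgs2 and the genes named only as cell type markers are outside this rule. The number of arrays limits the precision.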

Additional observations from a re-analysis of the deposited data

How the results depend on the processing

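Under 7 other settings of background, scaling, filter and probe choice, the members' median ratio stayed above 0 on arrays 1 and 2 and below 0 on array 3, from 0.96 to 2.39, 1.21 to 2.18 and -1.05 to -0.32. The sign pattern was met by 6 of 9 members in 5 of them, by 5 of 9 with median centring and by 7 of 10 without a filter. Median centring, which lowered the median of all features by 0.30 to 0.55, gave 10097 called features, 4 other immediate early genes higher and 12 lower, and medians of these genes of -0.17, 0.16 and -0.56; it turned the means of Junb (-0.10) and Nr4a2 (-0.42) below 0. Called features numbered 808 with the processed signals, 1033 without a filter and 810 in the deposited table. Other immediate early genes called higher were 5 with the processed signals and 5 in the deposited table, and those called lower were 1 in each of these and 1 without a filter. Leaving out each array gave 0 to 2052 called features, 0 to 25 of these genes higher and 0 to 2 lower. It changed the sign of 4 means: -0.11 to 0.11 for Junb and -0.43 to 2.19 for Egr1 (both below 0 without array 1), -0.14 to 0.47 for Nr4a2 (below 0 without array 2) and -0.50 to 0.45 for Ier3 (above 0 without array 3). Atf3 stayed called in 5 of 10 alternatives. The causes of these moves were not tested. Signal over background limits Fos in wild type on arrays 1 and 2, where its ratio was 6.80 and 6.60 with the processed signals. It also limits Fosb and Junb, whose ratios on array 1 were 2.38 and 1.39 with these signals, and Nr4a3.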
